A study of Mus musculus with 30 samples.

Results

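The 9 genes described here are C1qa, C1qb, C1qc, Mertk, Fcgr1, Csf1r, Apoe, Adgre1 and Cd14, which are used to recognise macrophage-like cells in bone marrow cultures grown with GM-CSF. They were chosen by name, by matching the symbols to the Ensembl gene identifiers of the count table, and all 9 were found among its 43629 rows. Polyadenylated RNA was sequenced from bone marrow-derived dendritic cells (BMDCs) of wild-type (WT) mice and of mice that lack Cacnb3 (Cacnb3-/-), which encodes the β3 subunit of voltage-gated calcium channels. The study asked how the loss of this subunit changes the response of dendritic cells to extracellular ATP. There were 30 libraries from 10 cultures, 5 of each genotype, and each culture gave 3 libraries, named after the culture number with the ending ctrl, 0p5h or 24h. The comparison of sets within a genotype asks what changed between harvests, and that of genotypes asks what changed with Cacnb3.

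All groups shared the growth factor GM-CSF and the harvest of semiadherent cells, and the protocol in the labels was a 30 min pulse of 500 µM ATP with harvest directly after it or 24 h later. The mice were adults of both sexes. WT mice were C57BL/6J and Cacnb3-/- mice were C57BL/6N, so that the substrain cannot be told apart from the genotype. The treatment field of the records and the library names go against each other: libraries ending in ctrl carry the treatment 30min_ATP, and those ending in 0p5h carry vehicle, while 24h carries 24h_ATP. The sets are therefore called ctrl, 0p5h and 24h after the names, and no set is called treated or untreated here. The labels do not say whether a culture was 1 animal.

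C1q is the recognition part of the classical complement pathway. It is assembled from the chains encoded by C1qa, C1qb and C1qc, which lie next to each other in the genome, and macrophages are its main source in most tissues. Mertk is a receptor tyrosine kinase through which macrophages take up apoptotic cells. Fcgr1 (CD64) is the high-affinity receptor for IgG, and Csf1r is the receptor for the macrophage growth factors CSF-1 and IL-34. Apoe encodes apolipoprotein E, a protein of the particles that carry cholesterol out of lipid-loaded macrophages. Adgre1 encodes the adhesion receptor F4/80, and Cd14 encodes the co-receptor that hands lipopolysaccharide to TLR4. Cultures with GM-CSF are known to hold macrophage-like and dendritic cell-like cells side by side, and several of these genes are used to separate them.

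In GRCm38 coordinates, the C1q genes lay on the minus strand of chromosome 4, with C1qb at 136880129 to 136886187, C1qc at 136889804 to 136893065 and C1qa at 136895917 to 136898803. Apoe spanned 19696109 to 19699166 on the minus strand of chromosome 7, Mertk 128698956 to 128802894 on the plus strand of chromosome 2, and Fcgr1 96282909 to 96293969 on the minus strand of chromosome 3. Adgre1 spanned 57358686 to 57483529 on the plus strand of chromosome 17. The positions of Csf1r and Cd14 are given with their values. Because C1qb, C1qc and Apoe moved together across the cultures, as described below, the bases before their starts are shown for a reader to compare. The sequences are RefSeq's (GRCm38.p6), written 5′ to 3′ along the gene's strand, and capitals mark matches to 2 short motifs. These are GAGGAA, the core of sites bound by PU.1, a transcription factor of myeloid cells, and TGCTGA, the half-site of MAF factors, each searched on both strands so that TTCCTC is also a match to the first.

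C1qb (chr4:136886201-136886450, minus strand): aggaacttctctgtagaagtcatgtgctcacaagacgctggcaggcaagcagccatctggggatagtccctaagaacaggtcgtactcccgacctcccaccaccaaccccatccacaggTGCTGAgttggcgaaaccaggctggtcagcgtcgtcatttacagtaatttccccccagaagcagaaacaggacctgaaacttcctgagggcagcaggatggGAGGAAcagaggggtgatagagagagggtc
C1qc (chr4:136893066-136893164, minus strand): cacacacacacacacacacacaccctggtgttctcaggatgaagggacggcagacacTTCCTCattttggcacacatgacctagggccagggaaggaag
Apoe (chr7:19699189-19699438, minus strand): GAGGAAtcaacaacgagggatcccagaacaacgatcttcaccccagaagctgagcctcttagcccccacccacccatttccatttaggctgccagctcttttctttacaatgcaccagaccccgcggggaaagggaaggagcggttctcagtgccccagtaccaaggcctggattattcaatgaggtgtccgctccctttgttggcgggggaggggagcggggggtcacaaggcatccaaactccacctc

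A start was listed for 5 of the 9 genes (C1qb, C1qc, Apoe, Fcgr1 and Mertk). The PU.1 core lay within the 250 bases before a start of 4 of these 5 genes, 30 bases before the start of C1qb, 55 before that of Fcgr1, 193 before that of C1qc and 250 before the outermost start of Apoe. The start listed for C1qc lies inside the span of the gene given above. Only the 99 bases of its window outside that span are printed, so that they do not reach this start. It was not found in the window of Mertk. The same letters occurred in 23.3% of 32851 promoter windows of this length. The MAF half-site was found in C1qb only, 131 bases before the start, and in 16.1% of all windows. The AP-1 motif TGANTCA (6.7% of all windows) and the C/EBP motif TTGCNNAA (9.6%) were in none of the 5 genes' windows. These matches describe letters, and binding was not measured.

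Library totals ranged from 8237393 to 32164225 counts with a median of 19556920. Each of the 9 genes was well covered, from a lowest count of 180 for Mertk to 1440 for Csf1r, so that counting error was small beside the differences between cultures. Totals were lower in Cacnb3-/- than in WT cultures (16640000 ± 3219000 against 21780000 ± 3329000 counts per library, SD, n = 5 each, two-sided exact permutation test p = 0.0397). The mitochondrial share of counts was higher in Cacnb3-/- cultures (7.41% ± 3.32 against 2.54% ± 1.57, SD, n = 5, exact permutation p = 0.0317). Over the 10 cultures, the r of the 9 genes with either property ran from -0.64 (Cd14 with the mitochondrial share) to 0.61 (Mertk with the mitochondrial share), and the lowest of the 18 adjusted permutation p-values was 0.237. Reads of Cacnb3 itself remained in all Cacnb3-/- libraries (573 to 1331 CPM, counts scaled to the library's size) beside 1035 to 2143 CPM in WT libraries. These ranges overlap and counts per gene do not show which exons were read, so that the counts do not verify the genotype, which is used as labelled. Genes of dendritic cells were present in every library, among them Ccr7 (1667 to 6466 CPM), H2-Ab1 (1717 to 6121 CPM) and Zbtb46 (76.7 to 225 CPM). The summed level of 20 dendritic cell genes, among them Cacnb3 itself, was 20430 to 38120 CPM in WT and 15420 to 26510 CPM in Cacnb3-/- libraries. The summed level of 24 other macrophage genes was 5376 to 20080 CPM over all libraries. Among these, Lyz2 was present throughout, Timd4 and Lyve1 had a median of 0 and Vsig4, a gene of tissue-resident macrophages, had 0 counts everywhere, which allows up to 3 counts per library. In such bulk samples, fewer cells of a type and less RNA per cell cannot be told apart.

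The 9 genes differed widely in level. Csf1r lies at 61105572 to 61132149 on the plus strand and Cd14 at 36725074 to 36726736 on the minus strand of chromosome 18. On a scale per length (TPM, in which a gene's count is divided by its length and scaled to the library), the order of the medians over 30 libraries was Apoe (697), Cd14 (551), C1qb (485), Csf1r (220), C1qa (198), C1qc (145), Adgre1 (38.3), Fcgr1 (22.9) and Mertk (10.9). The first 3 were not separate, since Apoe ran from 48.1 to 2024 TPM and Cd14 from 48.6 to 3175 TPM around the 153 to 939 TPM of C1qb. Within the C1q locus the order was stable: C1qb exceeded C1qa in 30 of 30 libraries (ratio of TPM 1.68 to 4.47, median 2.23) and C1qc in 30 of 30 (2.21 to 4.05, median 3.31). C1qa exceeded C1qc in 28 of 30 libraries. Adgre1, Fcgr1 and Mertk stood well under the others in median, and the ranges of neighbours in this order overlapped (Adgre1 20.5 to 72.1 TPM, Fcgr1 13.6 to 49.1 TPM, Mertk 5.88 to 26.8 TPM). How far a gene spread over the libraries differed as much as its level. In CPM, the highest library exceeded the lowest 70.6-fold for Cd14, 40.7-fold for Apoe and 10.1-fold for Csf1r. This ratio was 7.21 for C1qa, 7.05 for C1qc, 6.09 for C1qb, 4.36 for Fcgr1, 4.11 for Mertk and 3.35 for Adgre1.

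**Figure D1:**
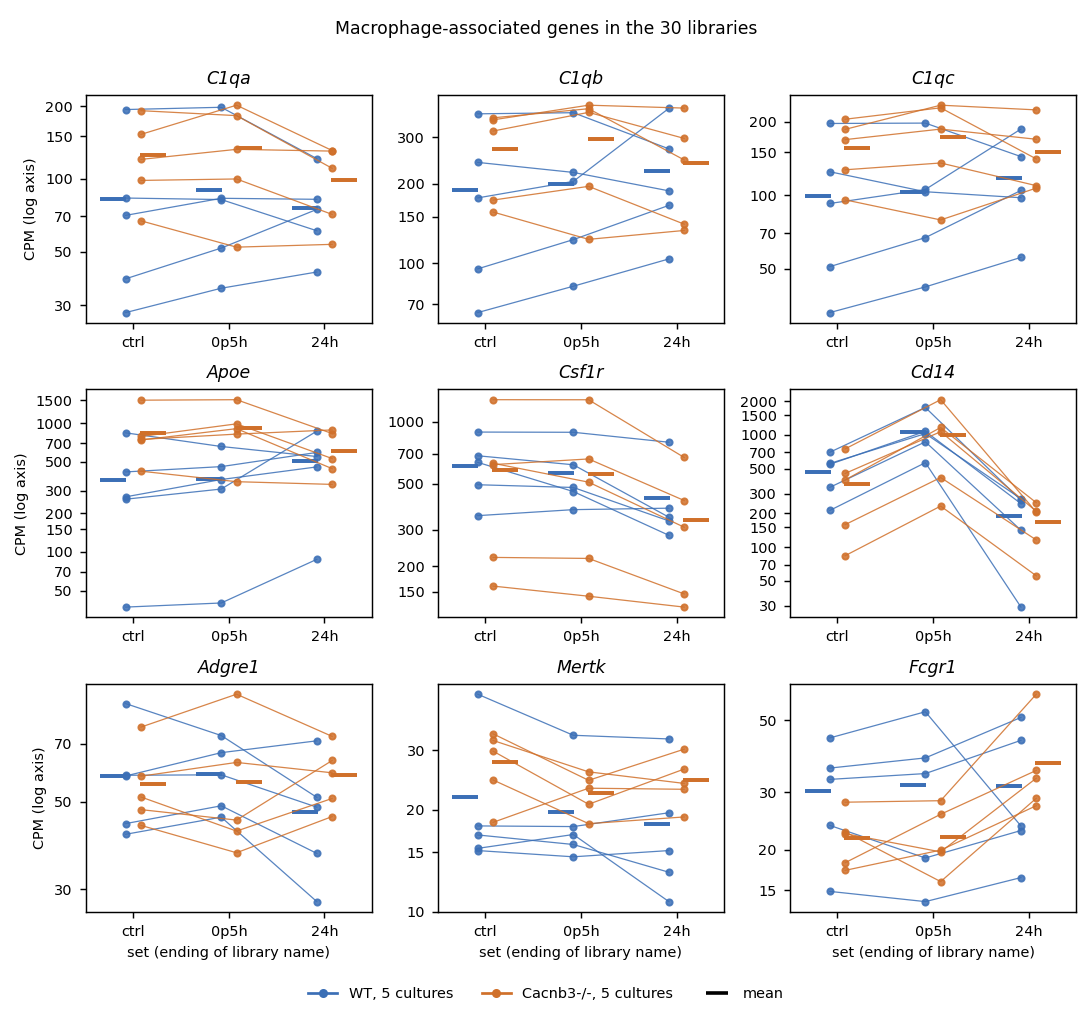
CPM of each gene on a log axis, against the set; each point is a library, lines join the libraries of a culture (5 WT in blue, 5 Cacnb3-/- in orange) and short bars are means of 5. Cd14 peaks in 0p5h in all 10 cultures, while the C1q genes and Apoe have no order of sets common to all cultures and their lines cross, with Apoe lowest in the WT culture at 37.3, 40.2 and 87.7 CPM.

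Most of this spread was between cultures of the same genotype. The sum of squares of log2(CPM + 0.5) over 30 libraries was divided among genotype, culture within genotype, set, and set by genotype. Culture within genotype took 80.8% for Csf1r, 78.0% for C1qb, 74.5% for Adgre1, 72.7% for C1qa, 66.6% for Mertk, 64.8% for Apoe, 64.1% for C1qc and 63.1% for Fcgr1, against a median of 46.4% over the 13755 genes tested. Cd14 was the exception, with 39.3% between cultures and 53.8% between sets. The set took 9.79% for Fcgr1 and 9.66% for Csf1r, and between 0.22% (Apoe) and 3.67% (Mertk) for the other 6 genes. Genotype took 24.8% for Apoe, 22.9% for C1qc, 18.8% for Mertk, 16.8% for C1qa and 10.2% for C1qb, and 5.66% or less for Csf1r, Fcgr1, Cd14 and Adgre1. Its median over all tested genes was 12.9%.

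**Figure D2:**
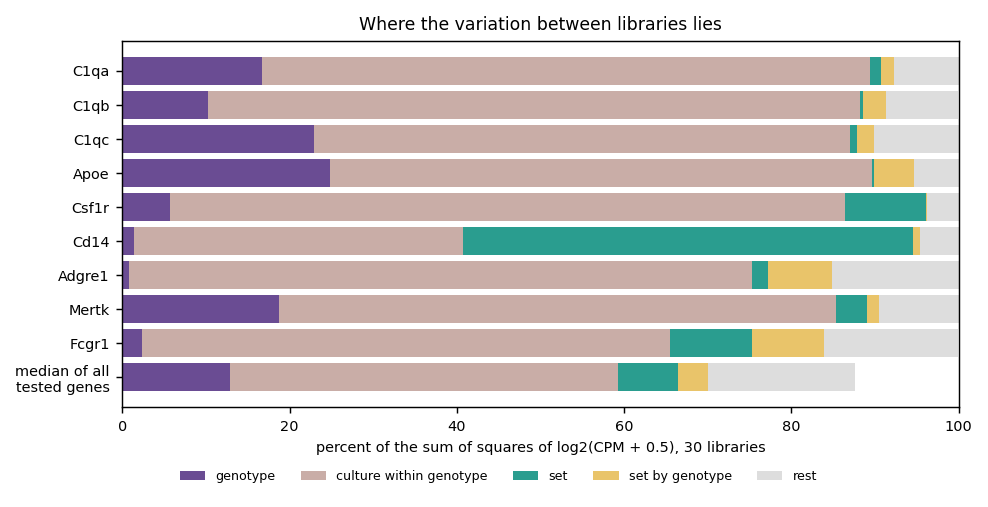
Share of the sum of squares of log2(CPM + 0.5) over 30 libraries (percent, x axis) for each gene and, in the lowest bar, the median of each share over all tested genes, which need not sum to 100. Culture within genotype is the widest segment for 8 of the 9 genes, and set (53.8%) for Cd14.

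Between genotypes, none of the 9 genes passed the threshold (edgeR's quasi-likelihood test, a change of at least 2-fold with a p under 0.05 after Benjamini-Hochberg adjustment) in any set or in the libraries of a culture summed. Apoe lay higher in Cacnb3-/- cultures and had the largest differences of the 9 genes in ctrl and 0p5h but not in 24h, by 1.22 ± 0.60 (log2, SE) in ctrl, 1.34 ± 0.55 in 0p5h and 0.26 ± 0.46 in 24h. The share of all genes passing was 0.0% in each of the 4 comparisons by edgeR. At an unadjusted p under 0.05 in edgeR, 16.6% of 13022 genes in ctrl, 16.4% of 12806 in 0p5h, 38.4% of 12706 in 24h and 23.3% of 14833 in the summed libraries were found, and 1 of the 9 members (Apoe in 0p5h). DESeq2 called 0.584%, 0.326%, 2.47% and 0.887% of all genes in the same comparisons, and 0 of the 9 members. No member separated the genotypes without overlap in any set, where 1.91% (ctrl), 2.01% (0p5h) and 6.15% (24h) of 13755 genes did, nor in the mean of a culture's 3 libraries, where 4.23% did.

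The C1q genes all lay higher in Cacnb3-/- cultures on average, within the spread. The 5 values of a group are given in the order of the culture numbers, which is p974s846, p974s850, p974s855, p974s856 and p974s864 for WT and p974s843, p974s851, p974s852, p974s853 and p974s865 for Cacnb3-/-. C1qa was at 38.6, 194, 27.98, 70.6 and 83.3 CPM in WT ctrl libraries and at 153, 192, 67.1, 98.6 and 120 CPM in Cacnb3-/- ctrl libraries. A WT culture, p974s850, was thus the highest of all 10, and the groups overlapped. The log2 difference of C1qa was 0.62 ± 0.46 in ctrl, 0.59 ± 0.45 in 0p5h and 0.40 ± 0.30 in 24h (SE), the last over WT values of 74.8, 121, 41.2, 82.3 and 61.0 CPM and Cacnb3-/- values of 131, 111, 53.6, 71.3 and 130 CPM. C1qb differed by 0.53 ± 0.43, 0.57 ± 0.41 and 0.12 ± 0.37, and C1qc by 0.67 ± 0.41, 0.76 ± 0.39 and 0.36 ± 0.30, in the same order of sets. Without p974s850, the ctrl differences were 1.21 ± 0.37 for C1qa, 0.92 ± 0.39 for C1qb and 1.07 ± 0.36 for C1qc, with no call. That culture was picked as the highest in C1qa, so that these values describe only its weight. All 3 chains thus had the same direction in each set, and the lowest adjusted p among them was 0.286 (C1qc in the summed libraries, edgeR).

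Apoe was at 268, 418, 37.3, 257 and 841 CPM in WT ctrl libraries and at 1508, 788, 424, 740 and 748 CPM in Cacnb3-/- ctrl libraries. In 0p5h it was at 365, 460, 40.2, 308 and 659 CPM in WT and at 1521, 988, 351, 907 and 822 CPM in Cacnb3-/- libraries. A single WT culture, p974s855, lay far under all others and a single Cacnb3-/- culture, p974s843, far over them, with the remaining 8 overlapping in both sets. In 24h the groups drew together, with 458, 593, 87.7, 867 and 551 CPM in WT and 831, 531, 335, 444 and 886 CPM in Cacnb3-/- libraries. The adjusted p-values of Apoe (edgeR) were 0.322, 0.282 and 0.704 in ctrl, 0p5h and 24h, and 0.233 in the summed libraries, where the log2 difference was 1.06 ± 0.51.

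Mertk differed by 0.37 ± 0.31, 0.21 ± 0.22 and 0.45 ± 0.27 (log2, SE; ctrl, 0p5h and 24h). In 24h it was at 10.7, 19.6, 13.1, 15.2 and 32.4 CPM in WT libraries and between 19.1 and 30.2 CPM, with a median of 23.9, in the 5 Cacnb3-/- libraries. Culture p974s864 was the highest library of all 10 in each set, at 44.0, 33.2 and 32.4 CPM, and the other 4 WT cultures lay between 10.7 and 19.6 CPM throughout. Without this culture, Mertk differed by 0.79 ± 0.18 in ctrl (adjusted p = 0.0395, edgeR), 0.47 ± 0.14 in 0p5h (0.107) and 0.76 ± 0.20 in 24h (0.0377), each under the 2-fold minimum. The culture was picked for its own Mertk values, so that these numbers describe its weight and do not test a genotype difference. Fcgr1 changed its direction between sets, with -0.45 ± 0.25 in ctrl, -0.52 ± 0.32 in 0p5h and 0.24 ± 0.32 in 24h. Csf1r (-0.06, 0.00 and -0.35), Adgre1 (-0.04, -0.05 and 0.33) and Cd14 (-0.34, -0.09 and -0.17) had log2 differences in each set that were smaller than 1.5 times their SE, which was between 0.22 and 0.51. The share of mitochondrial counts, given above, differed with the genotype as well. The summed dendritic cell genes reached lower in Cacnb3-/- libraries and overlapped with WT in ctrl and 0p5h but not in 24h. This sum was not tested, and no gene of that list passed between genotypes by edgeR. The part of either in these differences was not tested. With the trend over GC content removed, the 24h difference became 0.85 ± 0.29 for C1qa, 0.78 ± 0.28 for C1qc and 0.67 ± 0.43 for Apoe, with no call. With the sequencing lane as a covariate, an alternative chosen after seeing the data, Apoe differed by 1.88 ± 0.79 in ctrl and C1qb by 0.51 ± 0.33 in 24h, again with no call.

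Between sets, Cd14 was the one member that passed the threshold of 2-fold in any comparison, and its order of sets was the same in every culture. In WT, Cd14 was at 547, 341, 557, 701.5 and 212 CPM in ctrl, at 1078, 869, 1029, 1760 and 567 CPM in 0p5h and at 244, 142, 270, 262 and 29.2 CPM in 24h libraries. Each WT culture was thus highest in 0p5h and lowest in 24h, and the 24h values did not overlap with those of 0p5h, as was the case for 3.55% of 13755 genes. In Cacnb3-/-, Cd14 was at 397, 454, 83.8, 159 and 751 CPM in ctrl, at 1167, 1070, 232, 418 and 2064 CPM in 0p5h and at 249, 209, 55.5, 116 and 205 CPM in 24h libraries. The order of sets was the same in all 5 cultures, and 0p5h and 24h overlapped because culture p974s852 was low throughout (3.16% of genes did not overlap).

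The rise of Cd14 from ctrl to 0p5h was 1.85- to 2.66-fold within WT cultures and 2.36- to 2.94-fold within Cacnb3-/- cultures. Fitted without regard to culture, the log2 change was 1.18 ± 0.35 (SE, adjusted p = 0.46, edgeR) in WT and 1.41 ± 0.63 (adjusted p = 0.9999) in Cacnb3-/-, so that 0 of 9 members passed in either genotype, where 0.176% and 0.29% of all genes did. DESeq2 also called 0 members (0.202% and 0.215% of all genes), and at an unadjusted p under 0.05 Cd14 was found alone among the members in WT (4.54% of all genes) and in Cacnb3-/- (3.99%). The 3 libraries of a culture deviated together, and with the number of the culture as a replicate block the rise passed in WT (1.20 ± 0.08, adjusted p = 1.01e-05, edgeR) and in Cacnb3-/- (1.41 ± 0.07, adjusted p = 1.38e-05). The share of all genes passing with the block was 0.581% in WT and 0.643% in Cacnb3-/-.

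The fall of Cd14 from 0p5h to 24h was the larger step. Within cultures the 24h level was between 0.0524 and 0.263 of the 0p5h level in WT and between 0.0997 and 0.279 in Cacnb3-/-. In WT it changed by -2.48 ± 0.51 on the log2 scale (adjusted p = 0.0396, edgeR) and was the 1 of 9 members that passed, beside 0.639% of all genes. This call was lost when any of the cultures p974s846, p974s850, p974s855 or p974s856 was left out (edgeR's adjusted p 0.14 to 0.196, log2 change -2.65 to -2.37) and kept without p974s864, the culture with 29.2 CPM (-2.37, adjusted p = 0.00381). In Cacnb3-/- the change was -2.55 ± 0.56 (adjusted p = 0.0591, edgeR), which missed the threshold, and 0.66% of all genes passed. At an unadjusted p under 0.05, the members found from 0p5h to 24h were Cd14 in WT (11.2% of all genes) and Cd14 and Fcgr1 in Cacnb3-/- (17.5%), and DESeq2 called Cd14 in both (0.566% and 0.794%). With this block it passed by edgeR in Cacnb3-/- (-2.35 ± 0.18, adjusted p = 1.52e-05; 2.88% of all genes) and remained past it in WT (-2.71 ± 0.29, adjusted p = 0.000842; 1.78% of all genes).

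From ctrl to 24h, Cd14 was lower in 5 of 5 WT and 5 of 5 Cacnb3-/- cultures. The log2 change in WT was -1.31 ± 0.50 (adjusted p = 0.521, edgeR; 0.0152% of all genes passed), and with the block -1.52 ± 0.23 (adjusted p = 0.00757; 0.926% of all genes). In Cacnb3-/- it was -1.14 ± 0.54 (adjusted p = 0.444, edgeR; 0.0% of all genes passed). At an unadjusted p under 0.05, 1 member was found in each genotype from ctrl to 24h, Cd14 in WT (8.39% of all genes) and Fcgr1 in Cacnb3-/- (10.8%), and DESeq2 called 0 members in both (0.117% and 0.191% of all genes). Without the block, a test of whether these changes differed between genotypes found 0 members in any of the 3 comparisons by edgeR and by DESeq2. Without it, 0 members were found at an unadjusted p under 0.05 in edgeR, and 0.0% of all genes passed in each. At an unadjusted p under 0.05 in edgeR, 0.223% of all genes were found for 0p5h against ctrl, 4.86% for 24h against ctrl and 5.88% for 24h against 0p5h. For Cd14 itself the difference between genotypes of the change from 0p5h to 24h was -0.08 ± 0.77 (log2, SE, adjusted p = 0.984, edgeR). With the block this difference was 0.35 ± 0.37 (adjusted p = 0.542, edgeR). At an unadjusted p under 0.05 with the block, Apoe, Adgre1 and Fcgr1 were found for 24h against 0p5h, beside 3817 of 13424 genes (edgeR). In that comparison 0 members passed with the block.

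The other 8 genes did not pass in any comparison of sets, with or without the block, at the 2-fold minimum. Fcgr1 and Csf1r moved the same way in all 5 Cacnb3-/- cultures. Fcgr1 was at 28.3, 25.7, 15.9, 19.7 and 19.9 CPM in Cacnb3-/- 0p5h libraries and at 60.3, 35.1, 28.8, 33.2 and 27.3 CPM in 24h libraries, which was 1.36- to 2.11-fold higher within cultures. The log2 change was 0.76 ± 0.23 (adjusted p = 0.166, edgeR), and with the block 0.73 ± 0.11 (adjusted p = 0.00151), under the 2-fold minimum. With the block and no fold minimum, 28.6% of all genes passed in this comparison, and of the members Cd14, Fcgr1, Csf1r, Apoe and C1qa. In WT, Fcgr1 was higher in 24h than in 0p5h in 4 of 5 cultures and lower in p974s855, where it went from 53.2 to 23.6 CPM, and the log2 change was -0.01 ± 0.39. The difference between genotypes of this change was 0.76 ± 0.48 (adjusted p = 0.686, edgeR), and with the block 0.70 ± 0.26 (adjusted p = 0.122, edgeR). Csf1r in Cacnb3-/- was at 509, 659, 143, 218 and 1274 CPM in 0p5h and at 308, 415, 127, 147 and 670 CPM in 24h libraries, lower in 5 of 5 cultures. Its log2 change was -0.74 ± 0.58 (adjusted p = 0.492, edgeR), and -0.60 ± 0.11 with the block (adjusted p = 0.00278), also under 2-fold. In WT it was -0.40 ± 0.31, and 4 of 5 cultures were lower.

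Apoe went opposite ways in the genotypes between 0p5h and 24h, higher in 4 of 5 WT cultures and lower in 4 of 5 Cacnb3-/- cultures. The log2 change was 0.48 ± 0.64 in WT and -0.59 ± 0.36 in Cacnb3-/-, and the difference between them (-1.08 ± 0.78, adjusted p = 0.693, edgeR) did not pass. With the block, the difference was -1.16 ± 0.31 (adjusted p = 0.108, edgeR; 0.00745% of all genes passed). No C1q chain passed between sets: from ctrl to 0p5h their log2 changes were between 0.05 and 0.13 in both genotypes. From 0p5h to 24h they were -0.24, 0.16 and 0.20 for C1qa, C1qb and C1qc in WT and -0.42, -0.28 and -0.19 in Cacnb3-/-, where C1qa had an adjusted p of 0.0447 with the block (-0.36 ± 0.12, edgeR). From ctrl to 24h the changes were -0.12, 0.24 and 0.24 in WT (0.12, 0.37 and 0.41 with the block) and -0.34, -0.17 and -0.06 in Cacnb3-/-. Single WT cultures went both ways, from 0.628- to 1.93-fold for C1qa, 0.738- to 2.18-fold for C1qb and 0.733- to 2.04-fold for C1qc. Mertk and Adgre1 stayed between -0.31 and 0.14 on the log2 scale in all 6 comparisons of sets, with no call.

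**Figure D3:**
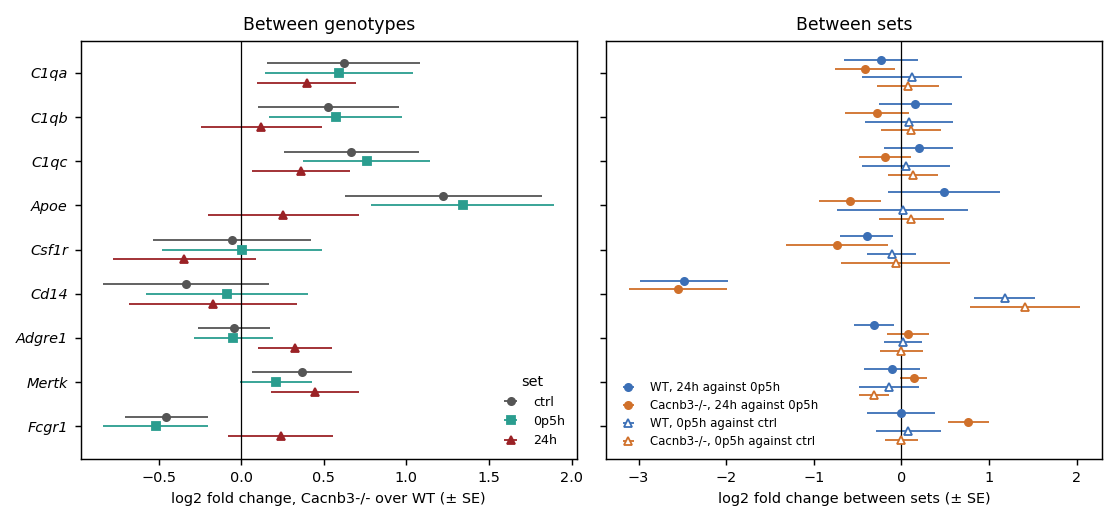
Log2 fold change with its standard error (x axis, edgeR) for each gene, between genotypes in each set (left) and between sets in each genotype (right). Cd14 stands apart at right, near -2.5 for 24h against 0p5h and above 1 for 0p5h against ctrl, and Apoe is farthest from 0 at left, at 1.22 in ctrl and 1.34 in 0p5h.

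How the genes varied together was measured over the 10 cultures, on the mean log2(CPM + 0.5) of a culture's 3 libraries, for all 36 pairs. The C1q genes rose and fell as a unit, Apoe went with them, Csf1r went with Cd14, and Fcgr1 went with neither the C1q genes nor Mertk. Pearson's r was 0.95 for C1qa with C1qb (Spearman's rho 0.89), 0.97 for C1qa with C1qc (rho 0.96) and 0.96 for C1qb with C1qc (rho 0.85). Their permutation p-values were 8e-05, 1e-05 and 6e-05 for r (0.00096, 0.00036 and 0.00096 adjusted over the 36 pairs; 0.018, 0.00216 and 0.0251 adjusted for rho), where 1e-05 is the smallest that the resampling can give. Without the 2 cultures farthest from the median of the first gene, r was 0.90, 0.98 and 0.89. Within the libraries of a culture, r over the 30 libraries was also high for these pairs (0.81, 0.76 and 0.94). The chains thus tended to move together between sets of a culture, C1qa less closely than the others. In WT culture p974s856, C1qb went from 204 CPM in 0p5h to 385 CPM in 24h, while C1qa went from 83.1 to 82.3 CPM.

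Apoe correlated with C1qa (r = 0.80, rho = 0.76), C1qb (r = 0.81, rho = 0.79) and C1qc (r = 0.88, rho = 0.85). The adjusted permutation p-values were 0.0145, 0.0145 and 0.00648 for r and 0.061, 0.0508 and 0.0251 for rho, and the unadjusted ones were 0.00223, 0.00241 and 0.00072 for r. Leaving out the 2 farthest cultures gave 0.88, 0.56 and 0.69. With each genotype centred on its own mean, r was 0.75, 0.78 and 0.84, and the relation was thus present within genotypes. Culture p974s855, the lowest in Apoe, was also the lowest WT culture in all 3 C1q genes.

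Csf1r and Cd14 correlated at r = 0.80 (permutation p = 0.00533, 0.0274 adjusted) and rho = 0.61 (p = 0.0675, 0.187 adjusted). Without the 2 farthest cultures r was 0.49, so that the relation rests in part on the Cacnb3-/- cultures p974s852 and p974s853, which were lowest in Csf1r. Neither passed with Apoe, where Csf1r had r = 0.19 but rho = 0.53 (r = 0.41 without the 2 farthest cultures, adjusted permutation p = 0.658 for r and 0.237 for rho) and Cd14 had r = -0.10 and rho = -0.055 (0.816 and 0.918). Mertk and Fcgr1 ran opposite to each other (r = -0.76, rho = -0.78, permutation p = 0.0125 and 0.0109, 0.0562 and 0.0551 adjusted), which did not pass after adjustment. In all, 7 of the 36 pairs passed by r and 4 by rho. The 4 were those among the C1q genes and C1qc with Apoe, and 9 pairs were negative, 6 of them with Fcgr1. The median r over the 36 pairs was 0.42.

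**Figure D4:**
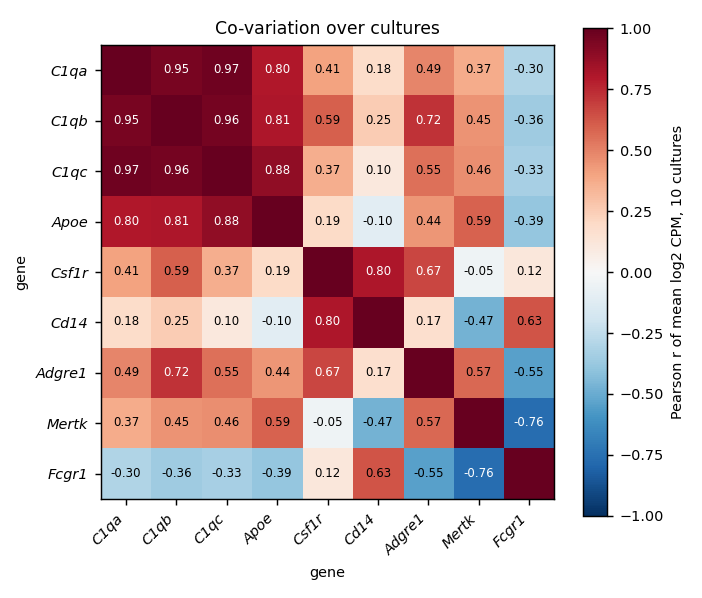
Pearson's r of the mean log2(CPM + 0.5) of each pair of genes over 10 cultures (colour from -1 to 1, value printed in each cell). The C1q genes and Apoe form a block between 0.80 and 0.97, Csf1r and Cd14 share 0.80, and the column of Fcgr1 is negative except with Csf1r and Cd14.

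**Figure D5:**
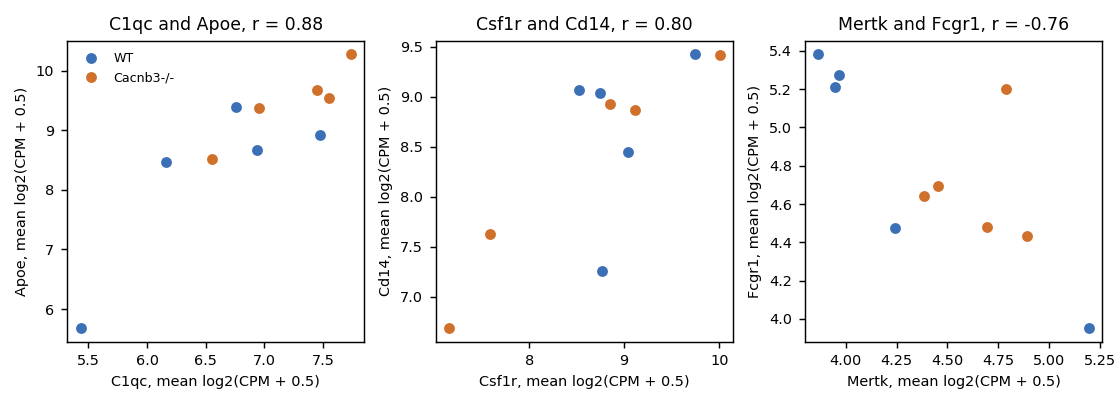
Mean log2(CPM + 0.5) of 10 cultures (5 WT in blue, 5 Cacnb3-/- in orange) for C1qc and Apoe, Csf1r and Cd14, and Mertk and Fcgr1. The lowest point at left is a WT culture that lies far from the others in both genes, and the r printed over the panels is 0.88, 0.80 and -0.76.

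Seen against all genes, the C1q chains were each other's nearest neighbours. Over the 30 libraries and among 13754 other genes, the first and second genes most like each chain in log2 CPM were the other two chains, at r of 0.93 or more, and Apoe stood 5th for C1qc, 25th for C1qa and 39th for C1qb. The nearest genes outside the set were Klk1b1 for C1qa (0.88) and C1qc (0.90), Acaa2 for C1qb (0.92) and Cdk20 for Apoe (0.92). Cdk20 was thus nearer to Apoe than any member was (C1qc, 0.86), and the remaining genes also had nearer neighbours outside the set than in it. Csf1r was most like F10 (0.97), Cd14 like Trem1 (0.96), Mertk like Fnip2 (0.91), Fcgr1 like Ifi204 (0.90) and Adgre1 like Camk1d (0.88). The nearest member of Fcgr1 was Cd14, at rank 4253. These correlations describe libraries of which 3 come from each culture, and carry no test. The genes most like the mean of the 9 standardized members included Itgam (0.92), Cfp (0.92), Fcgr3 (0.91), Itgb7 (0.91), Ctdspl, Clec4a1, Plxdc2, Atp8b4 and Cyp4f16 (0.88 to 0.89). Ktn1 (-0.87), Il15ra (-0.87), Lactb (-0.87), Ankib1 (-0.86) and Ap3m2 (-0.85) were most opposite.

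Gene lists of other cell types and pathways were then set beside the members over the 10 cultures, as a description. With C1qb, 15 of 20 tested other macrophage genes had r above 0.5 and none under -0.5, beside 12.7% and 11.7% of all genes. For Fc receptors this was 5 of 7, for genes of lipid handling 12 of 19 with 1 under -0.5, and for neutrophil genes 5 of 13. The counts differed between the chains, with 12 and 13 of 20 macrophage genes and 8 and 7 of 13 neutrophil genes above 0.5 for C1qa and C1qc. Dendritic cell genes showed the reverse, with 1 of 20 above 0.5 and 7 of 20 under -0.5. With the mean of the 3 C1q genes, Fcgrt (0.88), Fcgr3 (0.85), Itgam (0.85), Trem2 (0.84), Apoc2 (0.84), Cd163 (0.83), the complement receptor C5ar1 (0.80) and the scavenger receptor Msr1 (0.81) were high, and so was Csf3r (0.86), the receptor of the granulocyte growth factor G-CSF. Of these, Cd163 was near the floor, at 0 to 2.33 CPM with a median of 0.528 CPM. The highest gene of all these lists with this mean was the neutrophil gene Mmp8 (0.89). Above 0.5 were 8 of 13 neutrophil genes and 14 of 20 other macrophage genes, beside 12.1% of all genes. Irf8 (-0.76), a transcription factor of dendritic cells and monocytes, and the co-stimulatory genes Cd40 (-0.68), Cd86 (-0.64) and Cd83 (-0.61) were low, as was the lysosomal cholesterol carrier Npc2 (-0.75) of the lipid list. Of the 15 myeloid transcription factors, among which Irf8 was counted, 8 were above 0.5 with this mean and 2 under -0.5. These genes were named after their values were seen. Spi1, which encodes PU.1, had 0.16.

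Fcgr1 again stood apart. Among other macrophage genes 1 of 20 had r above 0.5 with it and 8 of 20 under -0.5, and among genes of lipid handling 2 of 19 and 10 of 19, beside 16.5% and 16.3% of all genes. Dendritic cell genes had 4 of 20 above 0.5, near the share of all genes, and none under -0.5. Neutrophil genes had 0 of 13 above 0.5 and 8 of 13 under -0.5. With Mertk, 13 of 20 macrophage genes were above 0.5 and 10 of 20 dendritic cell genes under -0.5 (2738 and 2895 of all 13755 genes). Cd14 had 7 of 12 genes of the lipopolysaccharide receptor complex and 5 of 9 monocyte genes above 0.5, beside 25.6% of all genes, but 3 of 20 macrophage genes in each direction. Csf1r likewise had 5 of 9 monocyte genes and 4 of 6 genes of the CSF receptors and ligands above 0.5 (25.1% of all genes). These lists were not particular to a single member. Cd14 also had 4 of 6 genes of the CSF list above 0.5. C1qb also had 5 of 9 monocyte genes above 0.5, beside 12.7% of all genes. Csf1r and Adgre1 each had 6 of 12 genes of the lipopolysaccharide receptor complex above 0.5 (13.5% of all genes for Adgre1).

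Of the genes that act beside the members, none of any list passed between genotypes by edgeR. At an unadjusted p under 0.05 in edgeR, 7 of 19 other macrophage genes, 4 of 13 complement genes, 3 of 6 Fc receptors, 6 of 18 genes of lipid handling and 11 of 20 dendritic cell genes were found in 24h, beside 38.4% of all genes. DESeq2 called 4 of the macrophage genes in 24h (3 higher and 1 lower in Cacnb3-/-), 2 genes each of the lipid and dendritic cell lists (1 in each direction), 2 of 9 monocyte genes (both higher) and none of the complement or Fc receptor genes, beside 2.47% of all genes. The largest 24h differences among them included Maf (1.47 ± 0.33, adjusted p = 0.0515), Mrc1 (1.53 ± 0.62, 0.0955) and Siglec1 (-1.48 ± 0.52, 0.066) of the macrophage list, Fcgr2b (0.99 ± 0.32, 0.0569) of the Fc receptors and Ccr2 (2.21 ± 0.47, 0.0515) of the monocyte list, as log2 differences of Cacnb3-/- against WT with SE and edgeR's adjusted p. Between sets, Tlr2 was the 1 of 12 genes of the lipopolysaccharide receptor complex that passed, in WT from 0p5h to 24h (-1.22 ± 0.23, edgeR's adjusted p = 0.026), and with the block it was also called lower in Cacnb3-/-. Among 15 myeloid transcription factors, 2 rose from ctrl to 0p5h in WT, the early-response gene Nr4a1 (4.31 ± 0.36, edgeR's adjusted p = 0.000926) and Klf4 (1.95 ± 0.30, 0.0236). In Cacnb3-/- Nr4a1 rose (4.57 ± 0.47, 0.0011), and with the block Klf4 was called as well. The block added Id3 (higher in WT 24h than in ctrl and 0p5h) and Maf (higher in Cacnb3-/- 24h than in 0p5h). Nr4a1 and Klf4 fell from 0p5h to 24h in both genotypes, with log2 changes of -3.83 and -5.75 for Nr4a1 and -2.52 and -2.36 for Klf4 in WT and Cacnb3-/- in turn. Cd14 was likewise highest in 0p5h and lowest in 24h in all 10 cultures. The lists of complement, Fc receptor, lipid and apoptotic cell uptake genes had 0 called genes in each comparison of sets by edgeR without the block and by DESeq2. At an unadjusted p under 0.05 in edgeR, 0 to 4 genes of each of these lists were found in a comparison. With the block, the calls were C1s1, a protease of the C1 complex (lower in WT 24h than in ctrl and 0p5h), Gas6, a ligand of Mertk (higher in WT 24h than in ctrl), and Pltp, a phospholipid transfer protein (lower in Cacnb3-/- 24h than in 0p5h).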

How the data were processed

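RNA was sequenced from 30 libraries of 10 GM-CSF cultures, 5 per genotype, in 3 sets (ctrl, 0p5h and 24h, after the library names). The deposited values are raw counts per gene, made by the authors with STAR 2.4 (per the submitters' processing notes) and featureCounts 1.5.1 on Ensembl release 79 (GRCm38, per the file headers). Reads were assigned without regard to strand, so a gene and an overlapping antisense gene cannot be told apart. No column was left unmapped (0). Symbols came from GENCODE M39 identifiers, which matched 38984 of 43629 rows (89.4%).

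All tests ran on the whole table with edgeR 4.0.16 (R 4.3.3), with TMM scaling, a filter on low counts and a quasi-likelihood test, and genes were called at a fold of 2 or more with a p under 0.05 after Benjamini-Hochberg adjustment. Each comparison used only its own groups, and comparisons of sets share libraries. Without culture as a block, p-values measure the spread between cultures, which may be technical in part, and comparisons of sets leave out the pairing. With the block, they measure how the change between sets varied between cultures. CPM are TMM-scaled over the 30 libraries, with a pseudocount of 0.5 before logs. Permutation tests used scipy 1.17.1, exact for 5 against 5 and with 100000 resamples for correlations over 10 cultures, and 36 pairs formed a family. The alternatives were DESeq2 1.42.0, its size factors in edgeR, no filter, no fold minimum, all libraries in a single fit, removal of the trend with GC content, leaving out each culture, culture as a block and, chosen after seeing the data, the sequencing lane as a covariate. Depth was 8237393 to 32164225 counts per library. The edgeR and DESeq2 fits without the block, and edgeR with the GC trend removed, were tested on simulated counts with no culture effect. The fit with culture as a block was not simulated.

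The culture number was taken to pair libraries of 2 sets where each same-numbered pair correlated above 0.1 in its deviations from the group means. This held for 29 of 30 pairs (median r 0.678, beside -0.193 for other numbers). The exception was in Cacnb3-/- between ctrl and 24h, where the block was not used for a call. The pairing comes from the library names. Each of the 9 members is named in each comparison. Of the other lists, genes called in any comparison or the 3 with the largest 24h genotype differences could be named, and the genes most like the members were the 10 highest and 5 lowest by r, of which some are not reported here. Genes named beside the C1q mean were chosen after their values were seen, as were those called with the block only. The members and lists were chosen with earlier results of these data known.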

Additional observations from a re-analysis of the deposited data

Results flagged for a closer look

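In 4 of 54 groups of 5 libraries, 1 library stood apart from the other 4 in a member's level (Dixon's test, gap over range above 0.71). Chance alone gives about 1 in 20 groups. Mertk was at 43.96 CPM in the WT ctrl library of culture p974s864 and at 33.23 CPM in its 0p5h library, far above the other WT cultures. The same culture was lowest among WT cultures in Cd14 and Fcgr1 in each set. Fcgr1 was at 60.25 CPM in the Cacnb3-/- 24h library of culture p974s843, which had the lowest total (8237393 counts) and the highest mitochondrial share (16.5%) of all 30 libraries, and the part of these in its level was not tested. Csf1r was at 794 CPM in the WT 24h library of culture p974s856, which was also highest among WT cultures in ctrl and 0p5h.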

How the results depend on the processing

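The number of members called was unchanged under every alternative in all comparisons of genotypes, of genotype by set, and in 24h against ctrl in Cacnb3-/- (0 in each). With culture as a replicate block, the count of members called rose from 0 to 1 (Cd14) in 0p5h against ctrl in WT and in Cacnb3-/-, in 24h against ctrl in WT and in 24h against 0p5h in Cacnb3-/-, and the pairing changed no other call. The last of these was also 1 with DESeq2, with no filter on low counts and with all libraries in a single fit. Leaving out 1 culture gave 0 to 1 members in 24h against 0p5h in WT (0 without p974s846, p974s850, p974s855 or p974s856) and 0 to 1 in Cacnb3-/- (1 without p974s852). For Cd14 in Cacnb3-/- from 0p5h to 24h, edgeR's adjusted p was 1.52e-05 to 0.274 over the edgeR alternatives. Over all genes, the block raised the calls from 23 to 76, 2 to 122 and 82 to 228 in WT and from 37 to 82, 0 to 138 and 84 to 367 in Cacnb3-/- (0p5h against ctrl, 24h against ctrl and 24h against 0p5h), where the pairing was not accepted for 24h against ctrl in Cacnb3-/-. DESeq2 called 51, 30 and 147 genes in WT and 54, 48 and 200 in Cacnb3-/- in these, and between genotypes 146 (ctrl), 83 (0p5h), 637 (24h) and 258 (summed) where edgeR called 0. The sign of a member's change turned in 116 of 1665 values, all within 1 SE of 0 and called in neither. The median r of the 36 pairs of members was 0.351 to 0.475 without 1 culture. The lowest count of a member in any library was 180, and the effect of depth on these calls was not tested. The causes of these changes were not tested.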
